A study of Rattus norvegicus with 12 samples.

Results

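The neurotrophins Bdnf and Ntf3 and their receptors Ntrk2, Ntrk3, Ngfr and Sort1 were followed in rat embryos at embryonic day 14, in the ganglionic eminences, the swellings of the ventral forebrain that form the striatum. These 6 genes were chosen by name, as probe sets annotated with exactly 1 gene symbol equal to theirs, among 14506 genes with such a probe set. Each was read by 1 probe set, so no choice between probe sets was needed, and all 6 matched the RefSeq gene table by Entrez number. RNA of 12 embryos was read on Affymetrix whole-transcript gene arrays, 1 embryo per array. In 6 the embryo was homozygous for BACHD, a transgene with full-length human huntingtin and 96 CAG repeats, and in 6 it was wild type. All embryos, wild type included, came from 3 time-bred transgenic dams that were dissected on the same day under ketamine and xylazine, and the dam and sex of each embryo were not given by the labels. The transgenic rat keeps its own Htt, so the comparison is of an added human gene and not of a lost rat Htt. The eminences of 1 embryo, medial and lateral together, made up each sample, so a level is an average over all their cells.

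Neurotrophins are secreted growth factors that are made as precursors and cut to a mature form. The mature form of BDNF, encoded by Bdnf, signals through the receptor tyrosine kinase TrkB (Ntrk2), and that of neurotrophin-3 (Ntf3) mainly through TrkC (Ntrk3). The p75 receptor (Ngfr) binds all neurotrophins, and with sortilin (Sort1) it forms a receptor for the precursor forms. In the adult, striatal neurons take up BDNF that cortical neurons make and carry along their axons, a transport that huntingtin promotes, which is why these genes are of interest in Huntington disease.

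Start regions of Bdnf, Ntf3 and Sort1 are shown because the regulators of Bdnf transcription are among the genes described further on, and because these 3 genes were the members matched in RefSeq's table of start regions for the rat assembly GRCr8. Each window of 300 bases runs across an annotated start. The table held 6 windows for Bdnf, of which the last 2 overlap, 3 for Ntf3, of which 2 differ by 1 base in position, and 1 for Sort1. Capitals mark matches, on either strand, to CGTCA, the core of the cAMP response element, to CACGTG, an E-box, or to GGGCGG, a GC box. The 4 windows printed are those of Bdnf with a CGTCA or CACGTG match, the Ntf3 window with most matches and the single Sort1 window. One more Bdnf window and both other Ntf3 windows hold GC boxes only, and 3 Bdnf windows hold no match.
Bdnf, chr3:116620585-116620884, plus strand: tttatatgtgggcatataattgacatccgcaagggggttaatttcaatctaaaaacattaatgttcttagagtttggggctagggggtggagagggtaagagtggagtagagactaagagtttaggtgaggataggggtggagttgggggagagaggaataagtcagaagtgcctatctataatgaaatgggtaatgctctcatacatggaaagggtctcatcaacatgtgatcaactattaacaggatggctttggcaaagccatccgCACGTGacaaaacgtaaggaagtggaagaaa
Bdnf, chr3:116637608-116637907, plus strand: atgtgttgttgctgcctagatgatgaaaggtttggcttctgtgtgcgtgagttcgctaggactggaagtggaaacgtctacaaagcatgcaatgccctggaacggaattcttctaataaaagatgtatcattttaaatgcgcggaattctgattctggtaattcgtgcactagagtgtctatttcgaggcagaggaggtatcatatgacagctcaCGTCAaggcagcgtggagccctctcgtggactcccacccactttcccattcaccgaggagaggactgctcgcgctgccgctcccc
Ntf3, chr4:160668858-160669157, minus strand: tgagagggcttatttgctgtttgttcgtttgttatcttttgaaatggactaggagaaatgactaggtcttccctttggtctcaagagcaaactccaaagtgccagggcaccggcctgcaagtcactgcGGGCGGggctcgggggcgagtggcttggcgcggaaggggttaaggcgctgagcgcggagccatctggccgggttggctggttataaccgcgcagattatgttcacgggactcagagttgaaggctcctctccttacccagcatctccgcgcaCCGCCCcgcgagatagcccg
Sort1, chr2:198612245-198612544, plus strand: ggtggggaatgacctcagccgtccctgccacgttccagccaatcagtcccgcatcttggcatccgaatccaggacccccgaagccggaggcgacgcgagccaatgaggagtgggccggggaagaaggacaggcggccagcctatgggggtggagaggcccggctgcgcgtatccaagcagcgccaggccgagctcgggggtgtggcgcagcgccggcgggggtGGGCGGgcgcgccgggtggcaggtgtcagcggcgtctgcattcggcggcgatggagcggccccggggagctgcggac
Of the Bdnf windows, 1 of 6 held CGTCA, which was present in 21.2% of all 33469 windows in the table. Another held CACGTG, present in 6.42% of all windows. The Ntf3 window shown held GGGCGG at 2 positions and the Sort1 window at 1 position, against 33.1% of all windows with at least 1. The matches do not overlap each other. They describe letters in these windows and not binding. The array gave 1 value for Bdnf, which does not separate transcripts from its different starts.

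The tissue label was checked with markers of the eminences. All 11 measured genes of this kind were brighter than the median probe set and than the 95th percentile of olfactory receptor probe sets, which stand here for genes with little expected transcription in this tissue. Between genotypes none of the 11 passed in limma, and 2 had an unadjusted p under 0.05 in opposite directions. Nkx2-1, a transcription factor of the medial eminence, stood at 0.16 ± 0.040 and Dlx5, of the subpallium, at -0.18 ± 0.080 (log2, homozygous minus wild type, SE; adjusted p = 0.108 and 0.321). Markers of the pallium were also bright, with 8 of 9 above the median probe set. The Htt probe set, for which the files do not say whether it also reads the human transcript, had a log2 intensity of 10.26 ± 0.0967 in homozygous embryos and 9.97 ± 0.114 in wild type (SD, n = 6 each; difference 0.30 ± 0.056, SE, adjusted p = 0.0408 in limma). Array medians were 7.69 to 7.76 in homozygous and 7.67 to 7.71 in wild-type arrays, and the median probe set stood 0.03 higher in homozygous embryos. Among probe sets above the median brightness the median difference was 0.0095, so the shift was smaller for bright probe sets. A difference of 0.03 in a member is therefore close to the median over all probe sets, but larger than that over bright ones.

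The 6 genes differed widely in brightness (the histogram of olfactory receptor probe sets). Intensity depends on the probes as well as on the RNA, so these positions do not rank the genes by abundance. Bdnf was the dimmest, with a mean log2 intensity of 5.87 over all arrays, at percentile 18.9 of all 29214 probe sets. It was brighter than 49 of the 59 olfactory receptor probe sets and lay inside their range, which ended at 7.40. Ntf3, at 7.14 (percentile 41.2), was brighter than 58 of 59 and also inside that range. A Bdnf or Ntf3 transcript level above background is thus not shown by brightness alone. Ngfr, at 7.82 (percentile 51.6), Ntrk3, at 9.997 (percentile 78.6), Ntrk2, at 10.92 (percentile 89.0), and Sort1, at 11.91 (percentile 96.0), were each brighter than all 59.

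**Figure D1:**
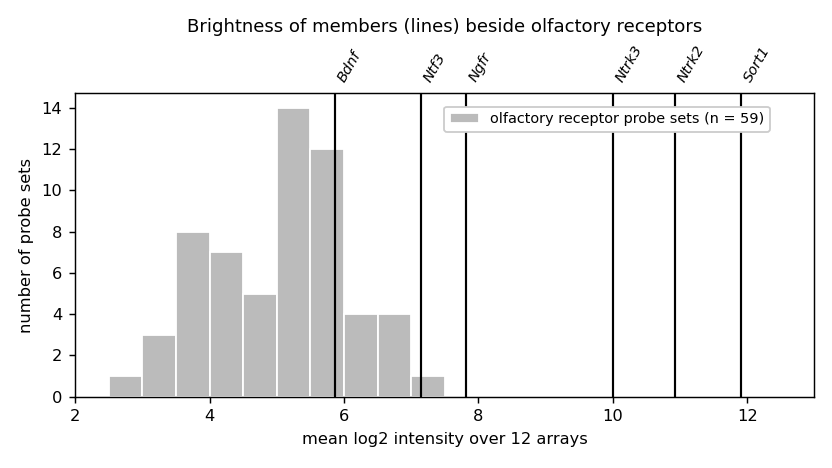
Mean log2 intensity over 12 arrays (horizontal axis) for 59 olfactory receptor probe sets (grey histogram, vertical axis number of probe sets) and for the 6 genes (black lines). Bdnf, at 5.87, and Ntf3, at 7.14, fall within the range of the olfactory receptors, while Ngfr, Ntrk3, Ntrk2 and Sort1 lie beyond 7.40.

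Homozygous and wild-type embryos did not differ beyond the threshold in any of the 6 genes. None passed an adjusted p of 0.05 in limma (Benjamini-Hochberg over all 29214 probe sets), where 124 probe sets, or 0.424%, passed (0.226% higher and 0.199% lower). At an unadjusted p under 0.05 there were 2 of 6, Sort1 above wild type and Ntf3 below it, against 15.0% of all probe sets (10.2% higher and 4.81% lower). The exact permutation test over the 924 assignments of 6 and 6 arrays, 2-sided, gave the same 2 of 6 under 0.05. It was run on these 6 genes alone, so no share over all probe sets stands beside it. Using the same values as limma, it is no separate support. The point estimate for Ntf3 was 10.5% below wild type, and that for Sort1 6.29% above it. In none of the 6 genes did the groups separate without overlap, as 1.86% of all probe sets did. In a bulk sample, fewer cells of a type and less RNA per cell cannot be told apart.

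**Figure D2:**
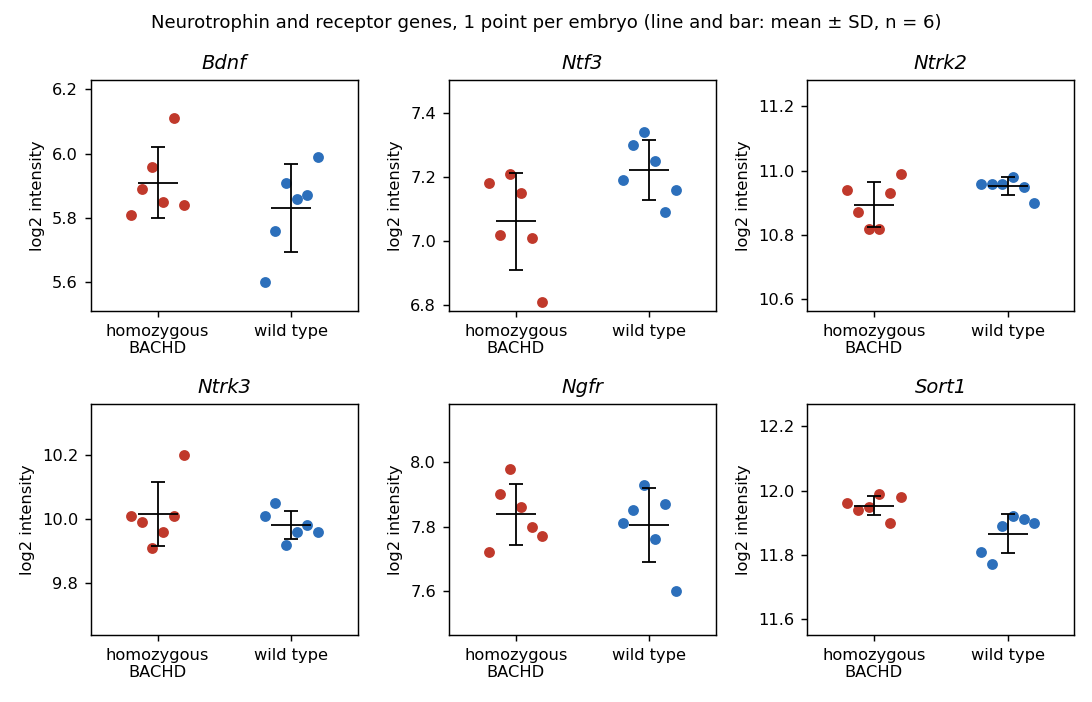
Log2 intensity (vertical axes, all spanning the same range) of each gene in every homozygous BACHD embryo (red, left) and wild-type embryo (blue, right), with the mean and SD of 6. The groups overlap in all 6 genes, with Sort1 nearest to separation, where 5 of 6 homozygous values lie above every wild-type value.

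Of the ligands, Bdnf is the neurotrophin on which adult striatal neurons depend. Its log2 intensity ranged from 5.81 to 6.11 with a median of 5.87 in homozygous embryos, and from 5.60 to 5.99 with a median of 5.86 in wild type. The medians were nearly alike, and 2 wild-type embryos lay below every homozygous one. The difference, homozygous minus wild type, was 0.08 ± 0.071 (log2, SE, n = 6 each; adjusted p = 0.601 in limma; exact permutation p = 0.320). Its 95% confidence interval ran from 0.952-fold to 1.17-fold. It was 0.03 without wild type 1, 0.04 without homozygous 5 and 0.0033 without wild type 1 and 2 together, and 0.02 to 0.04 under the 3 other scalings of the arrays.

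Ntf3, which encodes neurotrophin-3, had values from 6.81 to 7.21 with a median of 7.09 in homozygous embryos, against 7.09 to 7.34 with a median of 7.22 in wild type. All 6 homozygous embryos lay below the wild-type median, and 3 of them below every wild-type embryo. The difference was -0.16 ± 0.069 (log2, SE, n = 6 each; unadjusted p = 0.0362, adjusted p = 0.298 in limma; exact permutation p = 0.0455). Its interval ran from 0.808-fold to 0.992-fold. Without homozygous 6, the lowest embryo of all, it was -0.11, with an adjusted p of 0.400. With each array centred on its median it was -0.20, and after quantile normalization or cyclic loess -0.21, with adjusted p between 0.201 and 0.210.

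Of the Trk receptors, Ntrk2, which encodes TrkB, had values from 10.82 to 10.99 with a median of 10.90 in homozygous embryos, and from 10.90 to 10.98 with a median of 10.96 in wild type. Homozygous embryos were more spread, with an SD of 0.0690 against 0.0291, and 5 of 6 lay below the wild-type median. The difference was -0.06 ± 0.032 (log2, SE, n = 6 each; adjusted p = 0.406 in limma; exact permutation p = 0.0996), with an interval from 0.916-fold to 1.01-fold. With each array centred on its median it was -0.10 (unadjusted p = 0.0233, adjusted p = 0.253 in limma). Ntrk3, which encodes TrkC, ranged from 9.91 to 10.20 with a median of 9.998 in homozygous embryos, and from 9.92 to 10.05 with a median of 9.97 in wild type. Apart from homozygous 6, at 10.20, the embryos of both groups covered nearly the same range. The difference was 0.03 ± 0.043 (adjusted p = 0.724 in limma; exact permutation p = 0.554), with an interval from 0.960-fold to 1.09-fold. It was -0.0037 without homozygous 6 and -0.0041 with arrays centred on their medians, so it has no settled direction. For the values as deposited, changes in Ntrk2 or Ntrk3 of over 1.1-fold in either direction lie outside these intervals. The intervals do not cover other scalings, such as the centred Ntrk2 difference of -0.10 ± 0.0375 (SE), or compression of differences by short probes.

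Ngfr, which encodes the p75 receptor, ranged from 7.72 to 7.98 with a median of 7.83 in homozygous embryos, and from 7.60 to 7.93 with a median of 7.83 in wild type. The groups lay over each other, apart from wild type 6, the lowest of all. The difference was 0.03 ± 0.059 (log2, SE, n = 6 each; adjusted p = 0.801 in limma; exact permutation p = 0.597), with an interval from 0.938-fold to 1.12-fold. It was -0.0035 with arrays centred on their medians, -0.0029 after cyclic loess and -0.0063 without wild type 6, so it has no settled direction either.

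Sort1 encodes sortilin, which also sorts the BDNF precursor inside cells. Its values ran from 11.90 to 11.99 with a median of 11.96 in homozygous embryos, and from 11.77 to 11.92 with a median of 11.89 in wild type. All 6 homozygous embryos lay above the wild-type median, and 5 above every wild-type embryo. Homozygous 5 was the exception, and wild type 1 and 2 were the lowest of all. The difference was 0.09 ± 0.029 (log2, SE, n = 6 each; 1.06-fold, interval 1.02 to 1.11; unadjusted p = 0.00800, adjusted p = 0.182 in limma; exact permutation p = 0.00649). Over all probe sets, 4.39% had a smaller p. The array medians were higher in 5 of 6 homozygous arrays than in any wild-type array. Within homozygous embryos the array with the highest median, homozygous 5, had the lowest Sort1. Within wild type, replicates 1 and 2 had the lowest array medians (7.677 and 7.673) and the lowest Sort1 (11.81 and 11.77). The part of the array medians in the Sort1 difference was not tested. The difference was 0.05 with arrays centred on their medians (adjusted p = 0.465), 0.08 after quantile normalization and 0.09 after cyclic loess. It was also 0.05 without wild type 1 and 2. It passed in 1 of 23 other settings, where the first principal component of the residuals was a covariate (adjusted p = 0.0421). There 1025 of 29214 probe sets passed, against 124 as reported, and the SE of Sort1 was 0.0214 at the same difference.

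**Figure D3:**
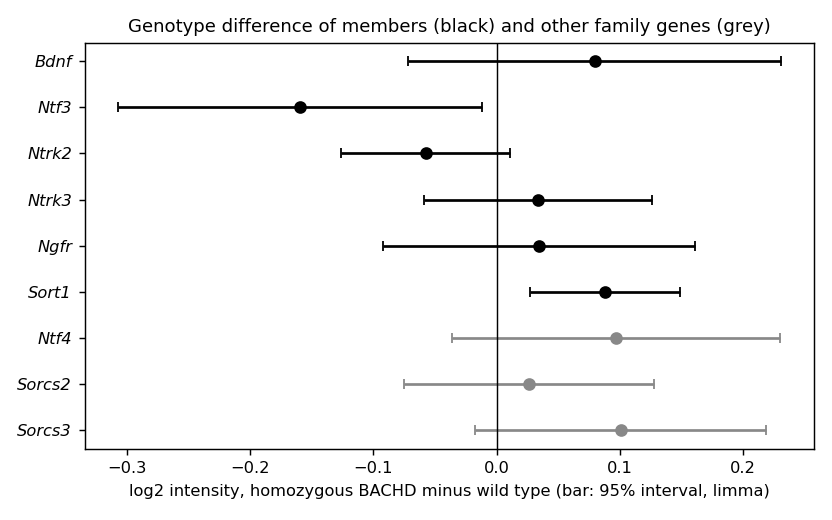
Log2 difference, homozygous BACHD minus wild type (horizontal axis), with its 95% confidence interval from limma (bars) for the 6 genes (black) and for Ntf4, Sorcs2 and Sorcs3 (grey). The intervals of Sort1 and Ntf3 leave out 0, and those of the other 7 genes include it, with no adjustment for the number of probe sets tested.

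The other measured genes of these families did not pass either. Ntf4 encodes neurotrophin-4, the other TrkB ligand. Its log2 intensity was 7.18 ± 0.123 in homozygous embryos and 7.09 ± 0.0935 in wild type (SD, n = 6 each), a difference of 0.10 ± 0.062 (SE; adjusted p = 0.471 in limma). It was 0.06 after median centring, 0.05 after quantile normalization and 0.04 after cyclic loess. Both group means of Ntf4 lay inside the range of the olfactory receptor probe sets, which ended at 7.40. A Ntf4 transcript level above background is thus not shown by brightness alone either. Of the relatives of sortilin, Sorcs3 had a difference of 0.10 ± 0.055 (adjusted p = 0.399) and Sorcs2, which also pairs with p75, one of 0.03 ± 0.047 (adjusted p = 0.807). After median centring these were 0.06 for Sorcs3 and -0.01 for Sorcs2.

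Around these families, 152 of 183 listed genes were measured, of which 1 was lower and none higher at an adjusted p of 0.05 in limma. Of all 14506 genes, each by its brightest probe set, 0.469% passed (0.200% higher and 0.269% lower). At an unadjusted p under 0.05 there were 27 of 152 (17.8%), 18 higher and 9 lower, against 15.1% of all genes (9.18% higher and 5.93% lower). The median difference of the 152 was 0.02, the same as over all genes. With arrays centred on their medians, Mcl1 passed beside Vps35, both lower. In that setting 302 of 29214 probe sets passed, 35 higher and 267 lower.

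**Figure D4:**
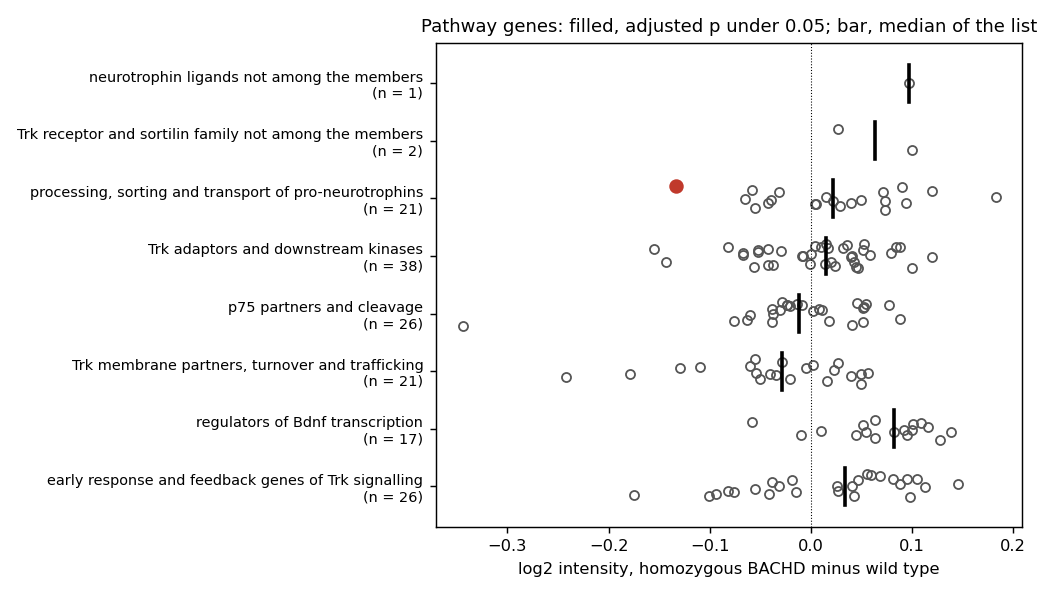
Log2 difference, homozygous BACHD minus wild type (horizontal axis), of 152 genes in 8 lists around the neurotrophins (rows, with the number measured). Open circles did not pass, the filled circle is Vps35, at -0.13, and the black bars are list medians, from -0.03 for Trk membrane partners to 0.10 for the single measured ligand.

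In the list for processing, sorting and transport of precursors, 1 of 21 measured genes fell and 20 did not pass. Vps35, the core subunit of the retromer, which returns receptors such as sortilin from endosomes, had values from 11.03 to 11.13 in homozygous embryos and from 11.19 to 11.26 in wild type. The groups did not overlap, as for 2.20% of all genes. Vps35 fell by 0.13 ± 0.024 (log2, SE, n = 6 each; 8.8% lower, adjusted p = 0.0370 in limma). It kept its direction in all 23 other settings and passed in 13 of them. Leaving out any of homozygous 1 to 5 or wild type 4, 5 or 6 brought its adjusted p to between 0.0691 and 0.0936. Hap1, which links huntingtin to motors that carry BDNF vesicles, had values from 10.05 to 10.15 in homozygous embryos and from 9.78 to 10.05 in wild type. They met only at 10.05, and the difference of 0.18 ± 0.041 did not pass (adjusted p = 0.0702). Hap1 passed in 4 of the 23 other settings. It did so above the median brightness, where 255 of 14607 probe sets passed, and among probe sets with exactly 1 gene (145 of 15310). It also passed with the mean of all probe sets (111 of 14506 genes) and with the residual component as covariate (1025 of 29214).

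Of 38 measured Trk adaptors and kinases none passed in limma, and 5 had an unadjusted p under 0.05 (13.2%, against 15.1% of all genes). The median difference was 0.01, and -0.02 with arrays centred on their medians, as it was for all genes. Rap1a, a small GTPase on the route from Trk receptors to sustained MAP kinase signalling, stood at -0.16 ± 0.047 (SE, adjusted p = 0.158), and Sh2b3, an adaptor that binds activated receptor kinases, at 0.09 ± 0.036 (adjusted p = 0.279). Of 26 genes for p75 partners and its cleavage none passed, and 2 had an unadjusted p under 0.05 (7.69%, against 15.1% of all genes). Bax, an effector of apoptosis, stood at 0.09 ± 0.030 (adjusted p = 0.195). Ndn, which encodes the p75-binding protein necdin, stood at -0.34 ± 0.127 (adjusted p = 0.233), with values from 11.84 to 11.94 in homozygous embryos and from 11.92 to 12.81 in wild type. Homozygous embryos lay close together, with an SD of 0.0432, and wild-type embryos were spread widely, with an SD of 0.365.

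Of 21 membrane partners and trafficking genes of Trk receptors none passed, and 4 had an unadjusted p under 0.05 (19.0%, against 15.1% of all genes). The median was -0.03, and -0.07 with arrays centred on their medians. Ptprs, a receptor phosphatase that acts on Trk receptors, stood at 0.06 ± 0.0205 (SE, adjusted p = 0.225), and Rab5a, of the early endosomes that carry activated Trk, at -0.13 ± 0.050 (adjusted p = 0.253). Of 26 early response and feedback genes none passed, and 6 had an unadjusted p under 0.05, 4 higher and 2 lower (23.1% in all, against 15.1% of all genes). Mcl1, an anti-apoptotic member of the Bcl2 family, stood at -0.10 ± 0.028 (adjusted p = 0.133), and Spry2, a feedback inhibitor of receptor kinases, at -0.17 ± 0.049 (adjusted p = 0.134). The dimmer second probe set of Mcl1 stood at -0.05 ± 0.043 (SE, adjusted p = 0.575 in limma). Those of Rab5a and Bax stood at -0.08 ± 0.037 and 0.13 ± 0.061 (adjusted p = 0.311 and 0.334). With arrays centred on their medians, the differences were 0.05 for Sh2b3, 0.05 for Bax and 0.02 for Ptprs. With the residual component as covariate, Rap1a, Ndn and Rab5a passed, where 1025 of 29214 probe sets passed, against 124 as reported.

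Among 17 measured regulators of Bdnf transcription none passed in limma. At an unadjusted p under 0.05 there were 6, all higher (35.3%, against 15.1% of all genes and 9.18% higher). In 15 of 17 the difference was above 0, against 8909 of all 14506 genes, with a median of 0.08 beside 0.02 over all genes. The median was 0.04 with arrays centred on their medians, where that of all genes was -0.02. It was 0.07 and 0.06 after quantile normalization and cyclic loess. In each of these settings 14 of 17 were above 0, against 5888, 7038 and 6934 of all 14506 genes, in the same order. Crebbp, the coactivator that CREB recruits, had values from 11.36 to 11.49 in homozygous embryos and from 11.22 to 11.39 in wild type, a difference of 0.10 ± 0.034 (SE, adjusted p = 0.195). Rest, the repressor that huntingtin holds in the cytoplasm and that silences Bdnf, had values from 8.77 to 8.86 in homozygous embryos and from 8.59 to 8.83 in wild type, a difference of 0.11 ± 0.041 (adjusted p = 0.247). These were 0.06 for Crebbp and 0.07 for Rest after median centring. Creb1 itself, whose response element core is marked in the Bdnf window above, stood at -0.06 ± 0.030 (chosen after its value was seen).

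Among the 12 embryos, the closest relation within the family was that of Ntrk2 and Ntrk3 (the scatter plot of the Trk receptor genes). After subtracting each genotype's mean, Pearson's r was 0.770 and Spearman's rho 0.713 (n = 12 embryos, permutation p within genotype, 2-sided, 0.00571 and 0.0226). Of 15 pairs among the 6 genes this had the smallest p, and adjusted over the 15 pairs it did not pass (0.0856 for r and 0.321 for rho). Without homozygous 3 and 6, the embryos farthest from the median on the Ntrk2 axis, r was 0.403. With arrays centred on their medians r was 0.829 and rho 0.811 (adjusted permutation p = 0.0214 and 0.0621), and r was 0.648 without the same embryos. Centring subtracts the same value from both genes of an array, which can itself raise r of any pair. The permutation does not allow for this. Within homozygous embryos r was 0.878, and within wild type 0.198, each over 6 embryos. Whether the genotypes differ in this was not tested.

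**Figure D5:**
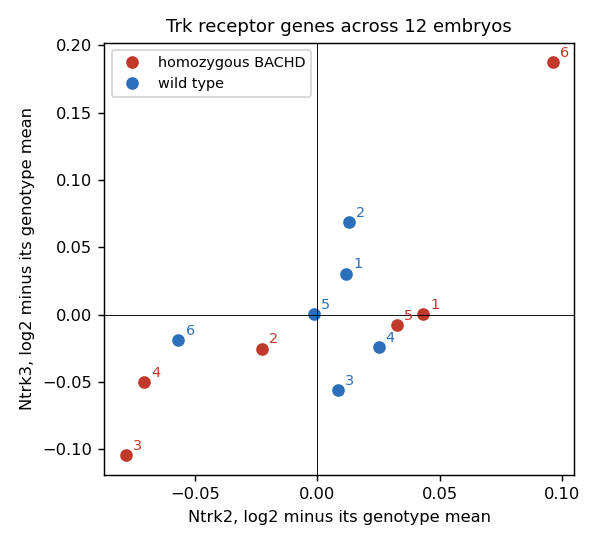
Ntrk2 (horizontal axis) and Ntrk3 (vertical axis), each as log2 intensity minus its genotype's mean, for 12 embryos numbered by replicate within homozygous BACHD (red) and wild type (blue). Homozygous 6 lies at the upper right and homozygous 3 and 4 at the lower left, and r over all 12 is 0.770.

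The other pair with an unadjusted permutation p under 0.05 was Ntf3 with Ntrk3, at r = -0.708 and rho = -0.552 (n = 12, permutation p = 0.0357 and 0.0844, adjusted 0.268 and 0.321). With arrays centred on their medians r was -0.512 (permutation p = 0.158, adjusted 0.790). Without homozygous 3 and 6 r was -0.107, so this relation rested on these embryos. Homozygous 6 had the highest Ntrk3 and Ntrk2 and the lowest Ntf3 of the 12. It also had the highest mean over 10 markers of postmitotic neurons, chosen after the member values were seen. That mean was 11.92 to 12.04 in homozygous and 11.94 to 12.03 in wild-type embryos, with homozygous 2 and 3 the lowest. Over 7 measured markers of neural progenitors, the mean of homozygous 6 was 11.55. Homozygous embryos ranged there from 11.47 to 11.58 and wild-type embryos from 11.47 to 11.65. The part of either mean in these relations was not tested. Over all 15 pairs r ranged from -0.708 to 0.770, and 12 were negative.

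Within an array, the log2 intensity of Ntrk2 minus that of Ntrk3 ran from 0.789 to 0.923 with a median of 0.894 in homozygous embryos, and from 0.916 to 1.04 with a median of 0.961 in wild type. In 4 of 6 homozygous embryos it lay below every wild-type value. Of 4 such contrasts computed this one separated the genotypes most. For Ntf3 minus Ntrk3, 3 homozygous embryos lay below every wild-type embryo, for Bdnf minus Ntrk2, 2 lay above, and for Sort1 minus Ngfr none lay beyond wild type. The first contrast was chosen after the values were seen and is given as a description with no test.

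The genes whose values followed each member most closely were sought among 14505 others, by Pearson's r over the 12 arrays after subtracting genotype means. For Ntrk2 these were Rapgef2, an exchange factor for Rap GTPases (r = 0.962), and Myt1l, a transcription factor of neurons (r = 0.935). For Ntrk3 they were Gnao1, a G protein subunit abundant in neurons (r = 0.938), and Pclo, which encodes the presynaptic protein piccolo (r = 0.930). For Sort1 they were Rbbp7, a histone-binding protein (r = 0.949), and Mob1b, of the Hippo pathway (r = 0.940). Ngfr was followed by Tcte1 (r = 0.935) and Cops6 (r = 0.916), Ntf3 by Usp45 (r = 0.887) and Gldc, of glycine cleavage (r = 0.883), and Bdnf by Nme8 (r = 0.944) and Cngb3, a photoreceptor channel subunit (r = 0.921). With so many genes and 12 arrays, high values arise among unrelated genes, and these are descriptions.

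Of the markers of other cells, those of the pallium stood lower in homozygous embryos in 8 of 9 genes, with a median of -0.11. None passed in limma, and 4 had an unadjusted p under 0.05, all lower (44.4%, against 15.1% of all genes and 5.93% lower). Their summed level was 12.73 to 12.91 on the log2 scale in homozygous and 12.74 to 13.14 in wild-type embryos. Neurod6 stood at -0.36 ± 0.105 and Slc17a7 at -0.25 ± 0.083 (SE, adjusted p = 0.145 and 0.187). Markers of neural crest, in which Ngfr is a known surface protein, had a summed level of 9.76 to 10.04 in homozygous and 9.78 to 9.93 in wild-type embryos, with none of 4 genes at an unadjusted p under 0.05. Those of the choroid plexus and roof plate stood higher in all 8 measured genes, with a median of 0.08 and a summed level of 9.82 to 10.08 in homozygous and 9.76 to 9.92 in wild-type embryos. Over all genes the median was 0.02, with 8909 of 14506 above 0. Of the 8 choroid plexus and roof plate genes, 7 were dimmer than the median probe set. The 95th percentile of olfactory receptor probe sets was brighter than 4 of them, so a transcript level above background is not shown for these by brightness. None of the 8 passed, and 3 had an unadjusted p under 0.05, all higher (37.5%, against 15.1% of all genes and 9.18% higher). Their median was 0.04 after median centring, and 0.03 after either quantile normalization, with 6 of 8 above 0, or cyclic loess, with 7 of 8. None of the measured markers of endothelium, pericytes, meninges, microglia and erythroid cells passed in limma. At an unadjusted p under 0.05 there were 2 of 10, 1 of 8, 0 of 8, 1 of 9 and 1 of 4, in that order. Those of endothelium and pericytes were higher, and those of microglia and erythroid cells lower, against 15.1% of all genes in either direction. The erythroid one was Hbb, at -0.49 ± 0.147 (SE, adjusted p = 0.155 in limma). The other erythroid genes went both ways, with Slc4a1 at -0.16, Alas2 at -0.04 and Ahsp at 0.08. The part of these markers in the values of the 6 genes was not tested.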

How the data were processed

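Per the submitters' processing notes, the values were made with Partek 6.4 and RMA, without order or settings. Per the labels' protocols, RNA was extracted with an RNeasy kit and labelled with the Ambion WT Expression Kit. The authors deposited 1 log2 intensity for each probe set on each array, a scale read from the values. Normalization between arrays, which RMA usually includes, can remove a shift common to most transcripts, and short probes compress differences. Depth does not apply, and the number of arrays limits precision.

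Of 29214 probe sets, 15310 had 1 gene symbol in the platform annotation, 323 several and 13581 none, and the last are unnamed here. For lists, the brightest probe set of a gene was used. Every probe set was fitted with limma 3.58.1 in R 4.3.3 (lmFit, eBayes with an intensity trend, 2-sided, threshold 0.05 on p-values adjusted by Benjamini-Hochberg across the whole table), with genotype as the only factor, and the fit was tested on simulated data. Exact permutation tests and permutation tests of correlations with 100000 resamples used Python 3.11.15. Permutation p-values of single genes are unadjusted. Whether embryos share a dam is not given, so p-values take them as independent.

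The members and lists were chosen with earlier results of these data known. Genes named were the members, their family, and at most 2 per other list by smallest p, beside those past the threshold, with exceptions stated, and the 2 genes most alike to each member. Other settings are given in the closing section.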

Additional observations from a re-analysis of the deposited data

Results flagged for a closer look

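Among 24 named genes, each looked at in both groups of 6 (48 groups), 4 embryos stood far from the rest of their group, with a gap to the nearest of the others that passes Dixon's 95% critical value as a share of the group's range. Chance flags about 1 in 20 groups. For Ntrk2, wild type 6 was low at 10.90 against 10.95 to 10.98 in the other wild-type embryos (gap 0.678 of the range). For Ntrk3, homozygous 6 was high at 10.20 against 9.91 to 10.01 (0.641). For Mcl1, wild type 5 was high at 11.71 against 11.61 to 11.63 (0.799). For Bax, homozygous 6 was low at 9.34 against 9.40 to 9.43 (0.640). Without homozygous 6 the Ntrk3 difference was -0.0037, and without wild type 6 the Ntrk2 difference was -0.07.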

How the results depend on the processing

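Of the 6 genes, none passed in 22 of 23 other settings, and 1, Sort1 (0.0879, adjusted p = 0.0421 in limma), passed where the first principal component of the residuals was a covariate. Bdnf, Ntf3, Ntrk2 and Sort1 kept their direction in every setting run, the filter on dim probe sets not applying to Bdnf and Ntf3, which it removed. Ntrk3 turned to -0.0041 with arrays centred on their medians, and Ngfr to -0.0035 there and -0.0029 after cyclic loess. With 1 array left out, the differences ranged from 0.03 to 0.11 for Bdnf, -0.19 to -0.11 for Ntf3, -0.08 to -0.04 for Ntrk2, -0.0037 to 0.0546 for Ntrk3, -0.0063 to 0.0603 for Ngfr and 0.07 to 0.10 for Sort1. The number of pathway genes past the threshold, 1 as reported, was 0 with the replicate block and without an intensity trend. It was 2 with arrays centred, above the median brightness, among probe sets with exactly 1 gene, with the mean of all probe sets, or without wild type 1 and 2. It was 8 with the residual component, and 0 to 1 with 1 array left out. The cause was not tested. Same-numbered arrays did not deviate together (r from -0.08 to 0.26, the best match in 1 of 6), so the numbers were not taken as pairs. With the replicate block the adjusted p was 0.202 for Sort1, 0.230 for Ntf3 and 0.0847 for Vps35, and 18 of 29214 probe sets passed against 124. Of the 124, 66 were higher and 58 lower, against 35 and 267 with arrays centred, and 43 and 77 or 44 and 74 after quantile normalization or cyclic loess. The 124 were 3 without a trend, 255 above the median brightness, 414 with array weights, 1025 with the residual component, 582 without wild type 1 and 2, and 4 to 200 with 1 array left out. The r of Ntrk2 and Ntrk3 was 0.403, and that of Ntf3 and Ntrk3 -0.107, without the 2 farthest embryos. Taking these by the values as deposited instead, which was run first and leaves the genotype means in, gave 0.654 and -0.08.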
